A study of Mus musculus with 2 samples.

Results

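The genes described here are 7 Fc receptor genes of myeloid cells, Fcgr1, Fcgr2b, Fcgr3, Fcgr4, Fcer1g, Fcrls and Fcgrt, chosen by symbol among the 32286 listed features, and all 7 were found once. They were measured in leukocytes of the mouse heart by droplet single-cell RNA sequencing. In the LOY library the transplanted bone marrow was labelled as LOY (loss of the Y chromosome), and in the control library the marrow was labelled as control. All mice in both groups had received transplanted marrow and had undergone transverse aortic constriction (TAC), in which the aorta is tied narrower and the heart pumps against a higher pressure. Viable CD45+ RFP+ cells, which the labels describe as derived from the transplant, were sorted from left ventricles, and 3 mice per group were pooled after sorting into 1 library. The recipients' strain, sex and age, the time since surgery and the way the Y chromosome was lost are not given in the sources used here. With 1 library per group there is no replicate, so no test was run, and every interval (95%, exact) covers counting error only. Differences between the 2 libraries therefore cannot be told apart from differences between pools, sorts or library preparations.

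Fc receptors bind the constant part of antibodies. In the mouse, Fcgr1 encodes the high-affinity IgG receptor FcγRI, and Fcgr3 and Fcgr4 encode the activating receptors FcγRIII and FcγRIV. These 3 signal through the common γ chain encoded by Fcer1g, whose cytoplasmic ITAM motif recruits the kinase Syk. Fcgr2b encodes FcγRIIB, the inhibitory receptor, whose ITIM motif recruits the phosphatase SHIP1, the product of Inpp5d. The balance of activating and inhibitory receptors sets how strongly a macrophage responds to immune complexes. Fcgrt encodes the heavy chain of the neonatal receptor FcRn, which pairs with β2-microglobulin (B2m) and recycles IgG and albumin inside cells. Fcrls encodes a receptor-like protein of mouse macrophages and microglia that is related to Fc receptors in sequence.

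On the build mm10, Fcgr2b (chr1:170958617-170976547, minus strand), Fcgr4 (chr1:171018920-171029761, plus strand), Fcgr3 (chr1:171051174-171064935, minus strand) and Fcer1g (chr1:171229572-171234365, minus strand) lie near each other on chromosome 1. Fcrls (chr3:87250758-87263738, minus strand) and Fcgr1 (chr3:96282909-96293969, minus strand) lie on chromosome 3 and Fcgrt (chr7:45092990-45103851, minus strand) on chromosome 7, all as annotated by GENCODE M21. The IgG receptor genes are related in sequence. In the last 500 bases of the longest annotated transcript, where 3' sequencing reads, 0 of 411 windows of 90 bases in any member were found in a transcript of another gene, so exact sharing of whole reads between members was not seen there. Antisense genes overlap Fcgr2b and Fcgrt (Gm38204 and Gm45669), and the small RNA genes Mir6546 and Gm26110 lie on the same strand within Fcgr3 and Fcgr4.

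The start regions of Fcgr1, Fcgr4 and Fcgr2b are shown as those of 2 activating receptors and of the inhibitory receptor, which differ in their pattern over macrophage clusters. Each is the RefSeq window (GRCm38.p6) from 250 bases before to 50 after the annotated start, 5′ to 3′ on the gene's strand, with matches to 3 searched motifs in capitals: TTCNNNGAA (the gamma-activated site), GAAA, any 2 bases and GAAA again (the core of an interferon-stimulated response element) and GAGGAA (a core letter run of sites of the myeloid factor PU.1), searched on both strands.
Fcgr1 (chr3:96293920-96294219, minus strand): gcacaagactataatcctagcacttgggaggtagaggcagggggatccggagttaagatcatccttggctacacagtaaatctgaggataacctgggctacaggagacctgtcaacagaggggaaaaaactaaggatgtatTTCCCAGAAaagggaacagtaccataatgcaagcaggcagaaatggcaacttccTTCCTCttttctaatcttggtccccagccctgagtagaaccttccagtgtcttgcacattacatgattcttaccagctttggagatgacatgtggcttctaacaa
Fcgr4 (chr1:171018676-171018975, plus strand): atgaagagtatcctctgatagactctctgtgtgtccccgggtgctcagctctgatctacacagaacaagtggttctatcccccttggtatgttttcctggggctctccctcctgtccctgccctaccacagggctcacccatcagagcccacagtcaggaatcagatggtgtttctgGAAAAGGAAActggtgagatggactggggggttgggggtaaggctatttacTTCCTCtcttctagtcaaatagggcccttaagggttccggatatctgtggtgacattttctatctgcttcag
Fcgr2b (chr1:170976022-170976321, minus strand): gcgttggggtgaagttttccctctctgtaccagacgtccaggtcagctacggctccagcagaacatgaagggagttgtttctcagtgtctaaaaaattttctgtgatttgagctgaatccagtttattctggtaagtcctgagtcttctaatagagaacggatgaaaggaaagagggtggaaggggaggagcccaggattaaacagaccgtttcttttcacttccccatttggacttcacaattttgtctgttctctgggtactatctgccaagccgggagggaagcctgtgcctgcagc
In Fcgr1, TTCNNNGAA matched 109 to 101 bases before the start and GAGGAA matched on the opposite strand 55 to 50 bases before it. In Fcgr4, the paired GAAA matched 73 to 64 bases before the start and GAGGAA matched on the opposite strand 22 to 17 bases before it. The window of Fcgr2b held none of the 3, nor did those of Fcgrt and of Fcer1g, whose level ran with those of Fcgr1 and Fcgr4 over macrophage clusters. The windows of Fcgr3 and Fcrls held GAGGAA. The windows of Fcgr2b and Fcgr3 lie wholly within the GENCODE M21 bounds of these genes. Bases before their M21 starts were therefore not searched. For Fcgr3, 2 windows were listed and only the first was searched. Of 32851 RefSeq windows of this length, 8.3% held TTCNNNGAA, 3.44% held the paired GAAA and 28.3% held GAGGAA. Such matches describe letters and are not shown to be bound here.

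In LOY there were 18710715 counted transcripts, or UMIs (molecular identifiers), in 5475 barcodes, with a median of 3026 per barcode. In control there were 42640861 UMIs in 7276 barcodes, with a median of 5109.5. After filtering, 5180 LOY and 6904 control cells remained in 23 clusters. The libraries shared 31 barcodes. Transcripts of 4 Y-linked genes (Ddx3y, Eif2s3y, Kdm5d and Uty) were lower in LOY, as its label says. They summed to 14.0 counts per 1000000 UMIs (CPM, interval 12.3 to 15.9) in LOY cells and 124 CPM (121 to 128) in control cells. LOY cells thus still held such transcripts (245 UMIs), and their source was not tested. Macrophage-like cells, named from 9 markers that include no Fc receptor gene, made up 80.1% of LOY and 68.3% of control cells (4149 and 4719 cells). Clusters are called by a leading gene below. Different clusters held most macrophage-like cells in the 2 libraries: the Spp1 cluster held 1434 LOY and 48 control cells, whereas the H2-Eb1 cluster held 273 LOY and 1354 control cells and the Cxcl2 cluster 53 LOY and 1000 control cells. A cluster mostly of 1 library may reflect that library rather than a cell state. An unnamed Cd209a cluster (166 LOY and 200 control cells) had macrophage markers with leading genes of dendritic cells, and an unnamed Myl7 cluster (49 LOY and 32 control cells) had macrophage markers with leading genes of heart muscle.

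Each Fc receptor gene had its own distribution over cell classes, shown in the plot of levels by class. Levels are given as CPM of the UMIs summed per class. Since 3' sequencing counts a transcript once whatever its length, they need no scaling for length between genes. How completely the transcripts of each gene were captured was not measured, so comparisons between genes are of UMIs. T cell-like cells, which should lack most of these receptors, serve as a guide to free RNA: Fcgr1 was 48.3 CPM in LOY and 36.2 CPM in control T cell-like cells, Fcgr2b 30.7 and 63.9 CPM, Fcgr3 30.7 and 97.0 CPM, Fcgr4 21.9 and 43.1 CPM, Fcer1g 391 and 554 CPM, Fcrls 35.1 and 60.1 CPM and Fcgrt 48.3 and 50.8 CPM.

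**Figure D1:**
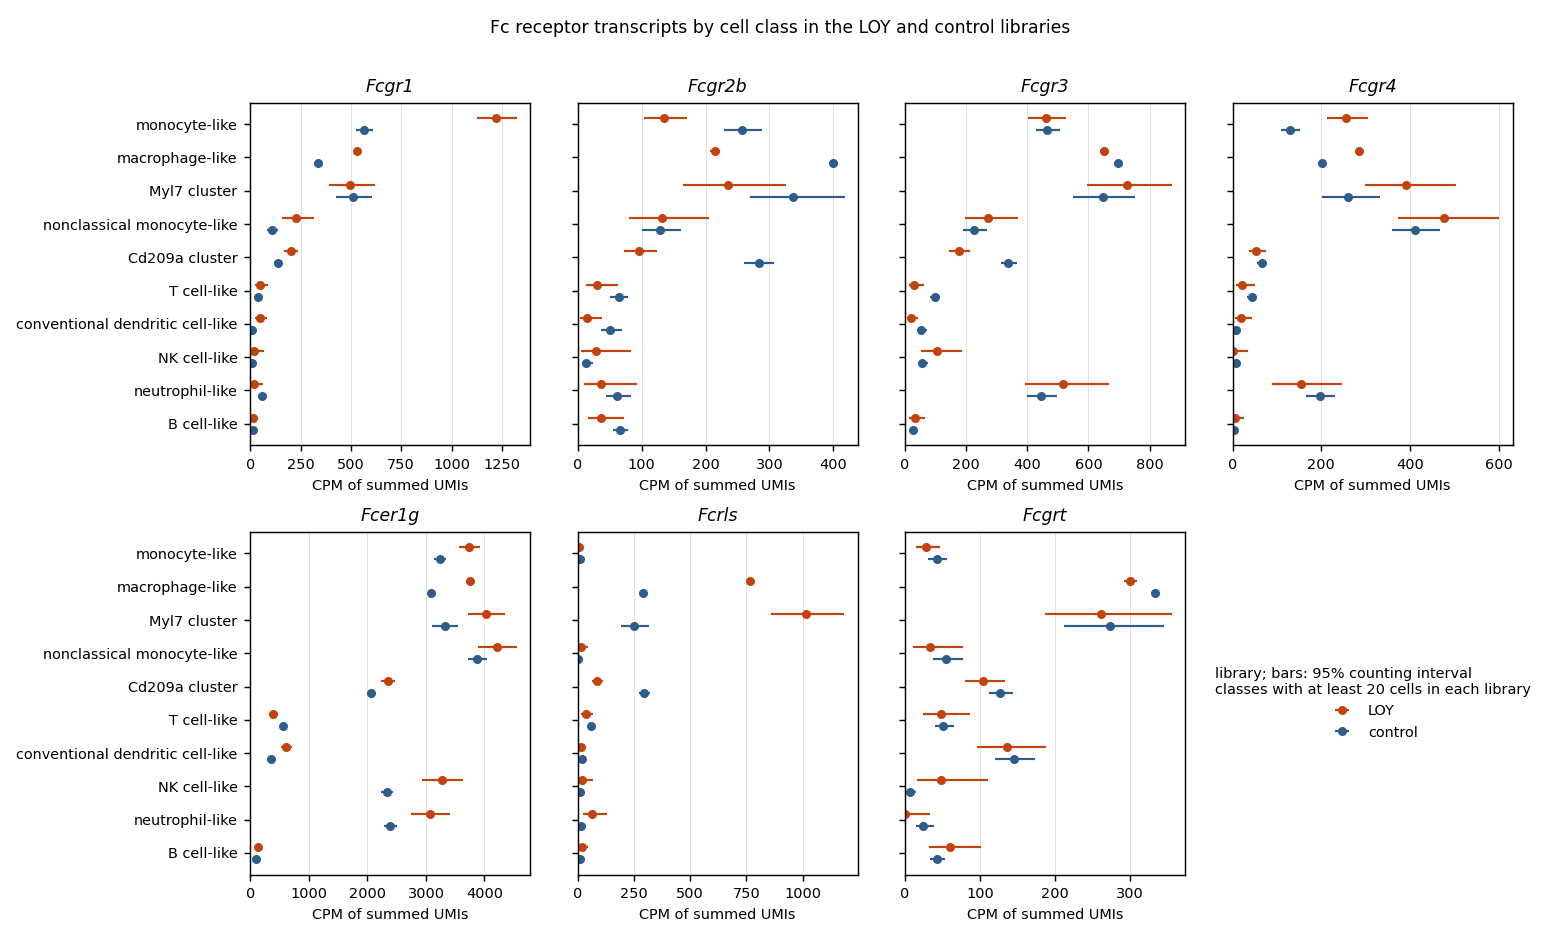
Level of each Fc receptor gene (horizontal axis, CPM of summed UMIs, a separate linear scale per gene) in 10 cell classes (rows, at least 20 cells per library), with LOY points above control points and bars for the 95% counting interval. Fcgr1 is highest in monocyte-like cells (1222 CPM in LOY and 567 CPM in control), Fcgr4 in nonclassical monocyte-like cells (478 CPM in LOY and 411 CPM in control), and Fcer1g is at 3273 CPM in LOY and 2328 CPM in control NK cell-like cells, near its level in the myeloid classes.

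Fcgr1 was highest in monocyte-like cells, which lead with Chil3, Plac8 and Vcan, at 1222 CPM in LOY and 567 CPM in control. Among the named classes macrophage-like cells followed at 533 CPM in LOY and 337 CPM in control, and the unnamed Myl7 cluster had 497 CPM in LOY and 510 CPM in control, while in neutrophil-like cells Fcgr1 was 18.1 CPM in LOY and 57.5 CPM in control, within or near the level of T cell-like cells. Fcgr4 had another order. Among the named classes it peaked in nonclassical monocyte-like cells, the patrolling monocytes marked by Ace and Treml4. It was 478 CPM in LOY and 411 CPM in control there. The unnamed Myl7 cluster had 392 CPM in LOY, with an interval overlapping that of nonclassical monocyte-like cells, and 261 CPM in control. In macrophage-like cells Fcgr4 was 286 CPM in LOY and 203 CPM in control. The intervals of macrophage-like and neutrophil-like cells overlapped in the control library (203 and 196 CPM).

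Fcgr3 was the most widely spread activating receptor, at 651 CPM in LOY and 696 CPM in control macrophage-like cells, 516 and 446 CPM in neutrophil-like cells and 462 and 466 CPM in monocyte-like cells. The intervals of macrophage-like, neutrophil-like and monocyte-like cells overlapped from neighbour to neighbour in the LOY library, and in the control library macrophage-like cells stood above the other two. NK cell-like cells, which are known to carry this receptor, had Fcgr3 at 104 CPM in LOY (11 UMIs) and 56.2 CPM in control (47 UMIs), the control value being below that of control T cell-like cells.

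Fcgr2b, the inhibitory receptor, was 215 CPM in LOY and 400 CPM in control macrophage-like cells. It was 134 CPM in LOY and 257 CPM in control monocyte-like cells, and 133 CPM in LOY and 129 CPM in control nonclassical monocyte-like cells. B cells are known to use FcγRIIB as their Fc gamma receptor, yet B cell-like cells held only 36.5 CPM in LOY (8 UMIs) and 66.3 CPM in control, with intervals that overlapped those of T cell-like cells in both libraries.

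Fcer1g had the highest CPM of the members in each of the 10 classes. The γ chain stood at 3761 CPM in LOY and 3083 CPM in control macrophage-like cells, 4218 CPM in LOY and 3875 CPM in control nonclassical monocyte-like cells and 3071 CPM in LOY and 2390 CPM in control neutrophil-like cells. NK cell-like cells also had 3273 CPM in LOY and 2328 CPM in control, where the γ chain also serves natural cytotoxicity receptors. B cell-like cells were lowest, at 128 CPM in LOY and 99.1 CPM in control. Conventional dendritic cell-like cells, which lead with Xcr1 and Clec9a, had 613 CPM of Fcer1g in LOY and 357 CPM in control.

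Fcrls and Fcgrt marked macrophage-like cells among the named classes. Fcrls was 764 CPM in LOY and 290 CPM in control macrophage-like cells, against 4.2 CPM in LOY (2 UMIs) and 10.3 CPM in control (12 UMIs) monocyte-like cells. The unnamed clusters also held Fcrls. It was 84.3 CPM in LOY and 295 CPM in control in the Cd209a cluster, and 1013 CPM in LOY and 249 CPM in control in the Myl7 cluster. Fcgrt was 301 CPM in LOY and 334 CPM in control macrophage-like cells, with conventional dendritic cell-like cells next among the named classes at 137 CPM in LOY and 145 CPM in control. Monocyte-like cells had 27.3 CPM of Fcgrt in LOY and 41.9 CPM in control, no more than T cell-like cells.

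Among macrophage-like clusters, Fcgr1, Fcgr4 and Fcer1g ran together, as the plot of levels by macrophage-like cluster shows. Fcgr3, Fcrls and Fcgrt did not follow that order. The Fc receptor genes were left out of the genes used for clustering. The Cxcl10 cluster, an interferon-responding state led by Ifit2, Ifit3 and Cxcl10, had the highest Fcgr1 in both libraries (1040 CPM in LOY and 826 CPM in control) and the highest Fcgr4 (548 CPM in LOY and 454 CPM in control). The Ly6c2 cluster, a recruited state with monocyte genes, came next for Fcgr1 (759 CPM in LOY and 522 CPM in control). Its Fcgr4 was 445 CPM in LOY, next to the Cxcl10 cluster, and 196 CPM in control, below the H2-Eb1 cluster (256 CPM in LOY and 273 CPM in control). In the Lyve1 cluster, a resident state, Fcgr4 was 117 CPM in LOY and 99.8 CPM in control. Intervals of Fcgr1 overlapped from neighbour to neighbour among the Spp1, Hist1h1b, Lyve1, Cxcl2 and H2-Eb1 clusters in LOY.

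**Figure D2:**
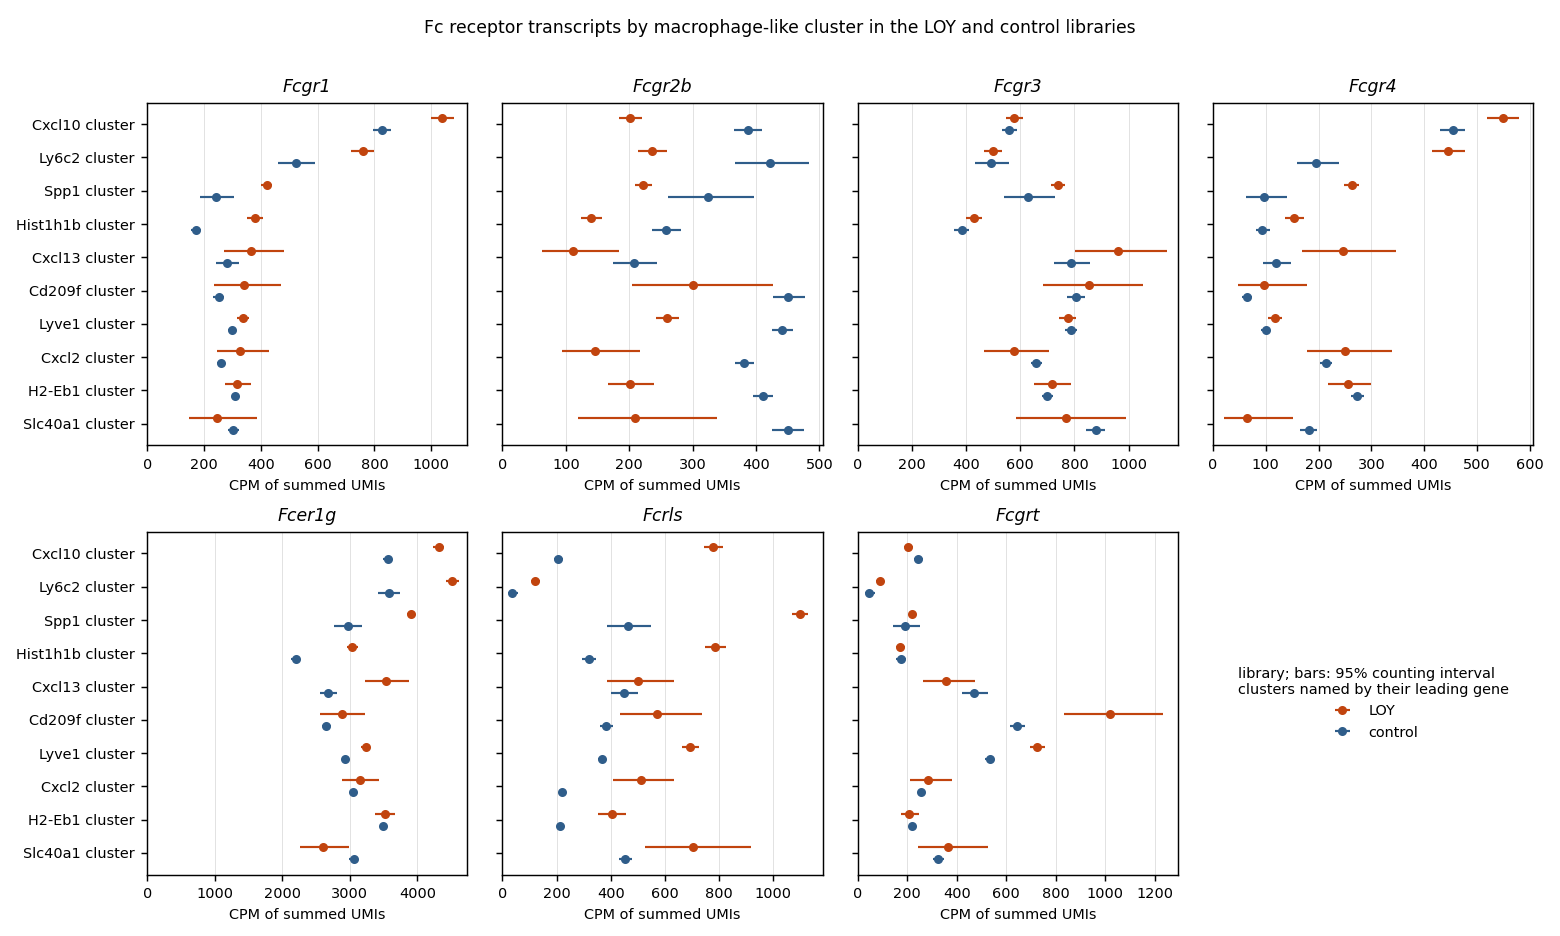
Level of each Fc receptor gene (horizontal axis, CPM of summed UMIs, linear) in the 10 macrophage-like clusters (rows, called by a leading gene), with LOY points above control points and bars for the 95% counting interval. Fcgr1 and Fcgr4 are highest in the Cxcl10 cluster, Fcgrt is high in the Lyve1 cluster (725 CPM in LOY and 533 CPM in control), and Fcgr2b is lower in LOY than in control in all 10.

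Fcgrt was highest in resident clusters. It reached 725 CPM in LOY and 533 CPM in control in the Lyve1 cluster and 1019 CPM in LOY (22 cells) and 644 CPM in control (312 cells) in the Cd209f cluster, another cluster with Lyve1. In the Ly6c2 cluster it was 88.4 CPM in LOY and 44.9 CPM in control. Fcrls was lowest in the Ly6c2 cluster too, at 122 CPM in LOY and 36.7 CPM in control. Among LOY clusters of at least 50 cells it was highest in the Spp1 cluster (1098 CPM in LOY and 462 CPM in control), a state with the lipid-associated genes Spp1, Trem2 and Fabp5 and with Fcrls itself among its leading genes. Fcgr3 was lowest in the cycling Hist1h1b cluster, at 429 CPM in LOY and 384 CPM in control, and 775 CPM in LOY and 788 CPM in control in the Lyve1 cluster. Fcgr2b of LOY lay between 140 CPM (123 to 157) in the Hist1h1b cluster and 260 CPM (241 to 279) in the Lyve1 cluster over the clusters of at least 50 cells. Each cluster's interval overlapped that of its neighbour in this order, but those of the lowest and highest did not overlap. In control, Fcgr2b of the Hist1h1b (258 CPM) and Cxcl13 (207 CPM) clusters stood below the other such clusters, of which the Cxcl2 cluster (381 CPM) was lowest.

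Over the 16 profiles of macrophage-like clusters with at least 50 cells in a library, log2(CPM + 10) of Fcgr1 correlated with Fcer1g at r = 0.85 and with Fcgr4 at r = 0.81, and Fcgr4 with Fcer1g at r = 0.85. Fcgr3 correlated with Fcgrt at r = 0.69, with Fcrls at r = 0.305 and with Fcgr1 at r = -0.22, and Fcrls correlated with Fcgrt at r = 0.61. Fcgr2b had r = -0.13 with Fcgr1 and r = -0.51 with Fcrls. The profiles share 2 libraries and their depth, so these values describe the profiles only.

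The comparison of LOY with control asks how cardiac macrophages under pressure load differ between marrow labelled as LOY and control marrow. In macrophage-like cells, the inhibitory receptor Fcgr2b was lower in LOY, and Fcrls, Fcgr1 and, by less, Fcgr4 and Fcer1g were higher, while Fcgr3 and Fcgrt were close to their control level. Fcgr2b had 215 CPM in LOY (3230 UMIs) and 400 CPM in control (12582 UMIs), a ratio of 0.537 (0.517 to 0.558). Fcrls had 764 CPM in LOY and 290 CPM in control, a ratio of 2.64 (2.57 to 2.71). For Fcgr1 the ratio was 1.58 (1.54 to 1.63), for Fcgr4 1.41 (1.36 to 1.47) and for Fcer1g 1.22 (1.21 to 1.23). Fcgr3 stood at 0.935 (0.913 to 0.958) and Fcgrt at 0.900 (0.869 to 0.932). On the scale of log2((LOY CPM + 10)/(control CPM + 10)), Fcrls was at 1.37, Fcgr1 at 0.65 and Fcgr2b at -0.87, beyond 1.5-fold, and the other members were within it. At least 1.5-fold higher were thus 2 of the 7 members, against 6.51% of the 7834 genes with at least 10 CPM in either library, and 1 of 7 was lower, against 8.18%. The median over the 7 members was 0.29 and over all measured genes -0.03. The call of Fcgr1 ends when each cell is thinned to 1000 UMIs (0.55) and when the 6 states compared have equal weight (0.40). With equal weights Fcgrt was at 0.19, higher in LOY.

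**Figure D3:**
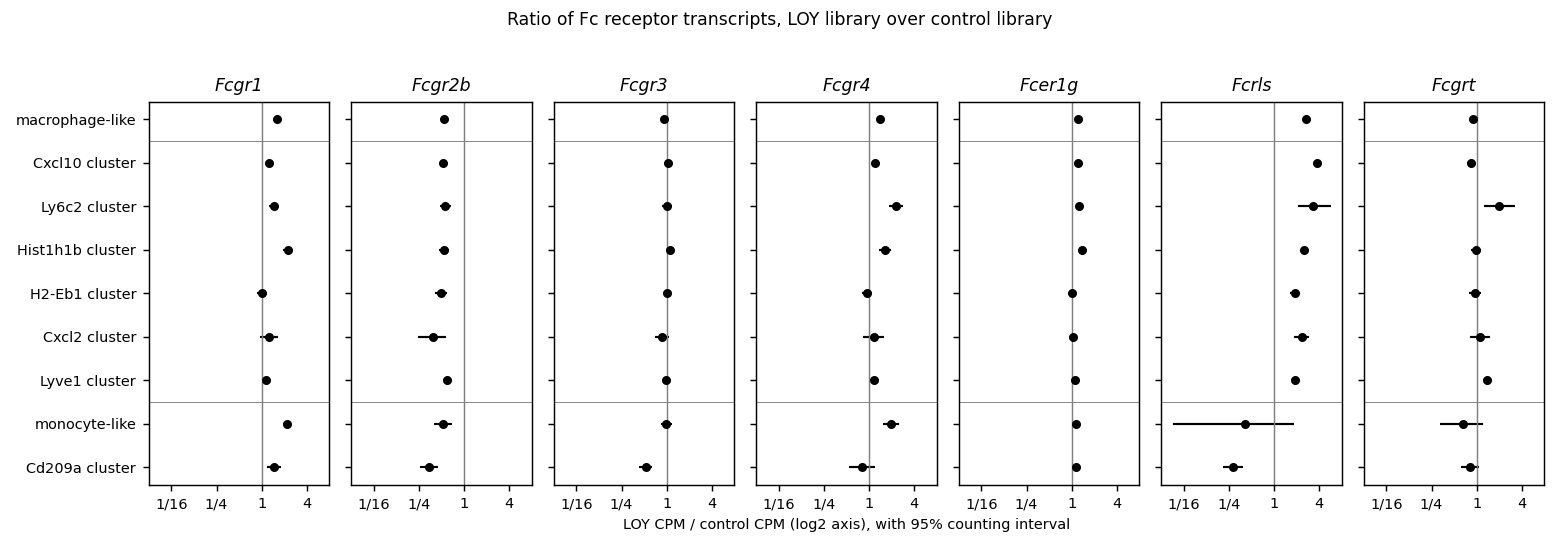
Ratio of LOY CPM to control CPM (horizontal axis, log2-spaced, with the 95% counting interval) for each Fc receptor gene in all macrophage-like cells, in the 6 macrophage-like clusters with at least 50 cells in each library, in monocyte-like cells and in the Cd209a cluster (rows). Fcgr2b lies left of 1 in all 9 rows, whereas Fcrls lies right of 1 in macrophage-like cells and in all 6 clusters and at 0.286 in the Cd209a cluster.

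The difference of Fcgr2b was seen in every macrophage state that could be compared. In the Cxcl10 cluster it was 202 CPM in LOY and 387 CPM in control (ratio 0.522, 0.469 to 0.580). In the H2-Eb1 cluster, where antigen-presentation genes lead, it was 201 CPM in LOY and 410 CPM in control (0.489, 0.405 to 0.586). In the Lyve1 cluster it was 260 CPM in LOY and 442 CPM in control (0.588, 0.541 to 0.638). The Hist1h1b (0.541), Ly6c2 (0.559) and Cxcl2 (0.383) clusters had the same direction, with intervals below 1. In each of the 6 states Fcgr2b was the 1 member at least 1.5-fold lower, where 8.2% (Lyve1), 9.89% (H2-Eb1), 10.1% (Cxcl10), 11.1% (Hist1h1b), 15.5% (Ly6c2) and 20.5% (Cxcl2) of measured genes were. In T cell-like cells Fcgr2b was 30.7 CPM in LOY (12.4 to 63.3) and 63.9 CPM in control (50.9 to 79.2), with overlapping intervals, and the part of free RNA in the differences was not tested.

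Fcrls was higher in LOY in the same 6 states, with 779 CPM in LOY and 206 CPM in control in the Cxcl10 cluster (ratio 3.78, 3.46 to 4.14) and 694 CPM in LOY and 367 CPM in control in the Lyve1 cluster (1.89, 1.78 to 2.01). The ratios in the Ly6c2 (3.32), Hist1h1b (2.47), Cxcl2 (2.32) and H2-Eb1 (1.89) clusters lay between these or equal to the lowest. In the Ly6c2 cluster the control value was 36.7 CPM (18 UMIs), below that of control T cell-like cells (60.1 CPM). The Cd209a cluster was the other way, with 84.3 CPM in LOY and 295 CPM in control (0.286, 0.211 to 0.382).

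The activating receptors differed by state. Fcgr1 was 379 CPM in LOY and 171 CPM in control in the cycling Hist1h1b cluster (ratio 2.22, 1.95 to 2.53) and 759 CPM in LOY and 522 CPM in control in the Ly6c2 cluster (1.45, 1.27 to 1.67), but 317 CPM in LOY and 311 CPM in control in the H2-Eb1 cluster (1.02, 0.876 to 1.18). Fcgr4 was 445 CPM in LOY and 196 CPM in control in the Ly6c2 cluster (2.27, 1.83 to 2.83), whereas in the H2-Eb1 cluster the ratio was 0.940 (0.793 to 1.11). The difference between states was not tested. For Fcgr3, intervals held 1 in 5 of the 6 states, and in the Hist1h1b cluster the ratio was 1.12 (1.01 to 1.24). Fcer1g had ratios from 1.01 (0.962 to 1.05) in the H2-Eb1 cluster to 1.38 (1.33 to 1.44) in the Hist1h1b cluster.

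Fcgrt, at 0.900 over all macrophage-like cells, was higher in LOY in the resident Lyve1 cluster. It was 725 CPM in LOY and 533 CPM in control there (1.36, 1.29 to 1.44). In the recruited Ly6c2 cluster it was 88.4 CPM in LOY (161 UMIs) and 44.9 CPM in control (22 UMIs in 64 cells). The ratio there was 1.97 (1.26 to 3.23), but the control value lay below that of control T cell-like cells (50.8 CPM). In the Cxcl10 cluster Fcgrt was lower, with 205 CPM in LOY and 245 CPM in control (0.835, 0.745 to 0.936). At least 1.5-fold higher in LOY was 1 member (Fcrls) in the Cxcl10, Cxcl2, H2-Eb1 and Lyve1 clusters, where 7.3%, 15.1%, 7.26% and 5.25% of measured genes were. There were 3 members in the Hist1h1b cluster (Fcgr1, Fcgr4 and Fcrls, background 6.37%) and 3 in the Ly6c2 cluster (Fcgr4, Fcrls and Fcgrt, background 8.22%). In the Ly6c2 cluster Fcrls and Fcgrt rest on 18 and 22 control UMIs.

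Outside macrophages, monocyte-like cells (166 LOY and 156 control cells) had 1222 CPM of Fcgr1 in LOY and 567 CPM in control (ratio 2.16, 1.93 to 2.41), 256 CPM of Fcgr4 in LOY and 129 CPM in control (1.98, 1.55 to 2.53) and 134 CPM of Fcgr2b in LOY and 257 CPM in control (0.523, 0.393 to 0.687). Fcgr3 was alike in level, at 462 CPM in LOY and 466 CPM in control (0.992, 0.844 to 1.16). At least 1.5-fold higher were 2 of 7 members, against 9.37% of 7385 measured genes, and 1 was lower, against 17.5%. These values depend on where the class ends. With each library clustered on its own, the class held 237 LOY and 199 control cells. The LOY cells then had the nonclassical marker Ace among their leading genes. Both classes changed, and the part of each in the log2 ratio of Fcgr1 was not tested. That ratio was -0.040 there, against 1.09 as given above. It was 0.79 with at least 1000 UMIs per cell and 0.69 with Fc receptor genes offered to the clustering. The calls of Fcgr2b and Fcgr4 ended with at most 5% mitochondrial UMIs (-0.35 and 0.43). The call of Fcgr4 also ended with cells thinned to 1000 UMIs (0.52), and that of Fcgr2b, narrowly, with Fc receptor genes offered to the clustering (-0.58).

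In the Cd209a cluster, Fcgr2b was 95.9 CPM in LOY and 283 CPM in control (0.339, 0.254 to 0.445) and Fcgr3 was 177 CPM in LOY and 338 CPM in control (0.523, 0.423 to 0.643). With Fcrls, these made 3 of 7 members at least 1.5-fold lower, against 18.4% of 7560 measured genes, and 0 were higher, against 8.48%. With each library clustered on its own, control had a cluster led by Cd209a (73 cells) and a macrophage-like cluster led by Retnla and Mmp12 (159 cells). LOY had a cluster led by Ccl17 and Ccl22, with Cd209a (139 cells). The part of such a difference in make-up in the ratios of the Cd209a cluster was not tested. Neutrophil-like cells were shallow in LOY (median 810 UMIs in LOY and 2030.5 in control), and Fcgr3 (1.16, 0.857 to 1.54), Fcgr4 (0.784, 0.444 to 1.30) and Fcgr2b (0.587, 0.153 to 1.61) had intervals that held 1, while Fcer1g was 1.28 (1.14 to 1.44). Thinning to 1000 UMIs left out the 80.5% of LOY and 1.04% of control neutrophil-like cells under that depth. The log2 ratio of Fcgr4 in the remaining cells was 0.87, the other way, and Fcgr4 had only 17 LOY UMIs before thinning. Fcgrt had 0 UMIs in LOY neutrophil-like cells, which allows up to 27.2 CPM, against 23.9 CPM in control, so a difference was not detectable at this depth. In B cell-like cells (median 859 UMIs in LOY and 2049 in control) the ratio of Fcgr2b was 0.551 (0.232 to 1.12).

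The make-up of IgG receptor transcripts within a class needs no scaling between libraries. Of the UMIs of Fcgr1, Fcgr3, Fcgr4 and Fcgr2b in macrophage-like cells, Fcgr2b took 12.8% in LOY and 24.4% in control, Fcgr1 31.6% in LOY and 20.6% in control, Fcgr4 17.0% in LOY and 12.4% in control and Fcgr3 38.7% in LOY and 42.6% in control. There were 0.146 Fcgr2b UMIs (0.141 to 0.152) per UMI of the 3 activating receptors in LOY and 0.324 (0.317 to 0.330) in control. Monocyte-like cells had 0.0693 in LOY and 0.221 in control. In the Cxcl10 cluster it was 0.0932 in LOY and 0.210 in control, and in the Lyve1 cluster 0.211 in LOY and 0.372 in control. The ratio was lower in LOY in all 10 macrophage-like clusters. In nonclassical monocyte-like cells it was 0.136 in LOY and 0.173 in control, with overlapping intervals. Fcer1g UMIs per activating-receptor UMI were 2.56 in LOY and 2.49 in control macrophage-like cells.

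**Figure D4:**
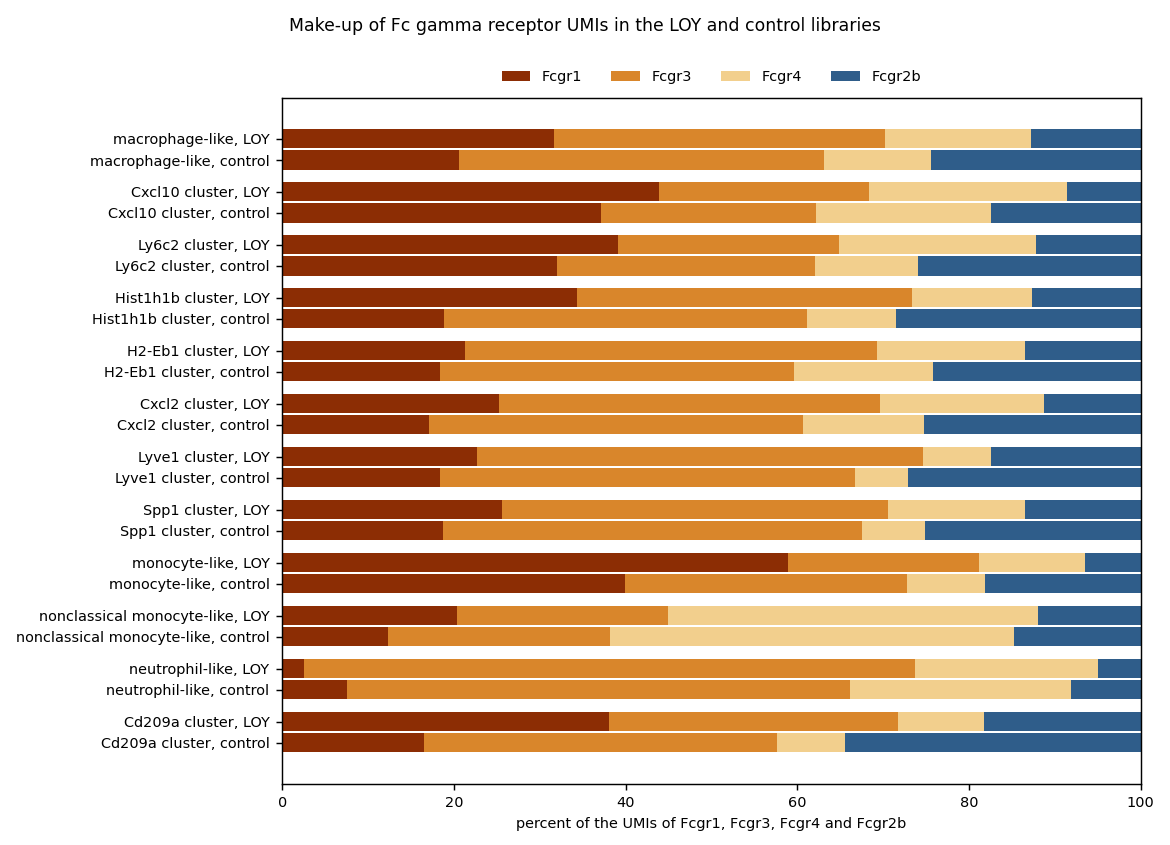
Percent of the UMIs of Fcgr1, Fcgr3, Fcgr4 and Fcgr2b (horizontal axis) that each gene takes in macrophage-like cells, 7 of their clusters, monocyte-like, nonclassical monocyte-like and neutrophil-like cells and the Cd209a cluster, with the LOY bar above the control bar. The Fcgr2b segment at the right is 12.8% in LOY and 24.4% in control macrophage-like cells, and Fcgr4 takes the largest part in nonclassical monocyte-like cells.

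Single cells were compared after thinning each to 1000 UMIs, which left out 80 LOY and 34 control macrophage-like cells. A UMI of Fcgr2b was then found in 18.3% (17.2 to 19.6) of LOY and 32.6% (31.3 to 34.0) of control macrophage-like cells, against 2.41% of LOY and 1.87% of control T cell-like cells, whose median depths were 1672.5 and 3875 UMIs against 3177 and 5813 in macrophage-like cells. Fcrls was found in 41.4% of LOY and 22.2% of control macrophage-like cells, Fcgr1 in 35.6% and 27.9%, Fcgr4 in 22.9% and 18.0%, Fcgr3 in 46.7% and 48.9%, Fcgrt in 21.7% and 25.6% and Fcer1g in 95.5% and 93.3%. At full depth Fcgr2b was seen in 47.5% of LOY and 83.4% of control macrophage-like cells. Transcripts of at least 2 of the 4 IgG receptor genes were found in 36.3% (34.8 to 37.8) of thinned LOY and 38.1% (36.7 to 39.5) of thinned control macrophage-like cells. In the Cxcl10 cluster this share was 53.7% in LOY and 52.2% in control, and in the Lyve1 cluster 28.3% in LOY and 38.1% in control.

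Genes around the receptors were read from 9 lists in macrophage-like cells, to be set against the 6.51% of measured genes that were at least 1.5-fold higher and the 8.18% that were lower. These values pool clusters that the libraries hold unevenly, such as the Spp1 cluster (1434 LOY and 48 control cells) and the H2-Eb1 cluster (273 and 1354 cells). The part of this in the list values was not tested. Of 23 genes of ITAM signalling, 19 were measured, with a median log2 ratio of -0.01, 1 higher (Vav1, an exchange factor for Rac, 113 CPM in LOY and 58.8 CPM in control) and 1 lower (Sh3bp2, an adaptor, 19.6 CPM in LOY and 38.1 CPM in control). Syk had 82.8 CPM in LOY and 94.9 CPM in control. Rac2 (0.56) and Lcp2 (-0.51) stood next to them on the log2 scale.

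The 15 inhibitory phosphatases and adaptors were all measured, 2 higher and 2 lower. Inpp5d, the SHIP1 gene, had 163 CPM in LOY and 126 CPM in control. The inhibitory receptor gene Cd300lf had 30.6 CPM in LOY and 5.27 CPM in control and the adaptor Dok3 107 CPM in LOY and 47.3 CPM in control, whereas Cd300a had 49.8 CPM in LOY and 103 CPM in control and Dok2 63.6 CPM in LOY and 114 CPM in control. Their median was -0.09.

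Of 20 partners of Fcer1g and of the related adaptor Tyrobp, 13 were measured, with a median of -0.08, 5 higher and 0 lower. Trem2, a lipid-sensing receptor that signals through Tyrobp, had 1220 CPM in LOY and 495 CPM in control, and Tyrobp 3637 CPM in LOY and 2183 CPM in control, a ratio of 1.67 (1.65 to 1.69). Cd300lb (-0.50) and Cd300ld (-0.43) were lowest on the log2 scale. In the list of FcRn partners, 6 of 8 were measured, 0 higher and 2 lower, with a median of 0.17. These were B2m, the light chain of FcRn, with 1672 CPM in LOY and 2969 CPM in control (ratio 0.563, 0.555 to 0.571), and the sorting nexin Snx5, with 303 CPM in LOY and 468 CPM in control. The chaperones Calr (0.38) and Canx (0.26) were highest.

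All 8 complement and phagocytosis receptors were measured, 0 higher and 1 lower, with a median of -0.13. This was C5ar1, the receptor for C5a, with 118 CPM in LOY and 227 CPM in control, while Itgam (0.25), C3ar1 (0.21) and Vsig4 (-0.27) were within 1.5-fold. Of 19 interferon-gamma responding genes, all measured, 0 were higher and 5 lower, with a median of -0.29. Ciita, the master regulator of MHC class II, had 33.8 CPM in LOY and 101 CPM in control and the chemokine Cxcl9 had 29.2 CPM in LOY and 87.1 CPM in control, while Cxcl10 (0.49) was highest. Among 12 microglia-like genes, 8 were measured, 3 higher and 0 lower, with a median of -0.13. Tmem119 had 87.3 CPM in LOY and 11.7 CPM in control and Olfml3 had 87.3 CPM in LOY and 16.7 CPM in control, whereas Gpr34 (-0.35) and Selplg (-0.46) were lowest. Tmem119 and Olfml3, like Trem2, are among the leading genes of the Spp1 cluster, which is mostly of LOY.

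Only 1 of 12 other Fc and Fc-like receptors, the intracellular antibody receptor Trim21, was measured in macrophage-like cells, at 14.8 CPM in LOY and 13.9 CPM in control, and the IgE receptor chains Fcer1a and Ms4a2 had 0 UMIs in both libraries, which allows up to 0.199 CPM in LOY and 0.0953 CPM in control. Of 8 immunoglobulin heavy constant genes, Ighm was measured, with 169 CPM in LOY and 373 CPM in control macrophage-like cells. B cell-like cells had 2125 CPM of Ighm in LOY and 2404 CPM in control, and the part of free RNA in the macrophage-like value was not tested.

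Across 31 profiles of 1 cluster in 1 library with at least 50 cells, the genes whose log2(CPM + 10) was most like each member were sought among 5553 genes. For Fcgr2b they were Lgmn (r = 0.95), Ctsc (0.92) and Zeb2os (0.92), for Fcgr3 Hacd4 (0.97), Lamp2 (0.96) and Clec4a2 (0.95), for Fcgr1 Ms4a6c (0.93), Hmox2 (0.93) and Ms4a6d (0.93), and for Fcgr4 Lst1 (0.92), Slc15a3 (0.89) and Igsf6 (0.86). Fcer1g was most like Tyrobp (0.92), Nptn (0.91) and Metrnl (0.90), Fcrls was most like Pf4 (0.94), C1qa (0.93) and Pdlim4 (0.93), and Fcgrt was most like Ap1b1 (0.92), Rnf150 (0.91) and Zdhhc14 (0.90). The profiles share 2 libraries and differ in depth, and the values describe likeness of pattern only.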

How the data were processed

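The kit was Chromium 3', per the labels' protocols. The submitters' processing notes name Cell Ranger 5.0.0 and mm10. The authors deposited UMI counts for each gene in each barcode, whole numbers that were not normalized. The sources used here do not name the annotation release.

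Barcodes under 500 UMIs, under 200 genes or over 10% mitochondrial UMIs were dropped (Python 3.11.15, scanpy 1.11.5, numpy 2.4.6, scipy 1.17.1). Scrublet marked 88 control barcodes and 0 LOY barcodes as doublets, so in LOY the 235 highest scores (4.34%) were removed, and the libraries were treated unequally. Clustering used 2000 variable genes without the 19 Fc receptor genes of the members and of the list of other Fc receptors, 30 principal components, 15 neighbours and the Leiden method (resolution 1, igraph 0.11.9). Marker lists gave each cluster its name, with the scoring chosen after the data were seen, so names are rebuilt and can differ from the study's.

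Levels are a class's UMIs of a gene over all its UMIs, in each library (CPM). Sums have exact Poisson, ratios exact conditional and shares Clopper-Pearson intervals, and a count of 0 is given as a limit of 3 counts. PCR copies are collapsed by UMI, and cells of 1 library are not replicates. Log2 ratios add 10 CPM, which understates differences of low genes. Classes needed 100 and macrophage clusters 50 cells in each library. The intervals and calls were tried on simulated counts that held counting error only. That checks the calculation and does not cover variation between cells, pools or libraries.

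The 7 members and the 9 lists were chosen with earlier results of these data known. Genes named are the members, the 2 highest and 2 lowest measured genes of each list in macrophage-like cells, Syk, Inpp5d, B2m and Tyrobp, and the 3 genes most like each member. The values of 1 gene that the rule names are not reported here. Genes that lead clusters, the Y-linked genes, Fcer1a and Ms4a2 stand outside this rule.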

Additional observations from a re-analysis of the deposited data

Results flagged for a closer look

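Fcrls went in opposite directions in neutrophil-like cells and in the Cd209a cluster, which flagged it. The log2 ratio of LOY over control was 1.53 in neutrophil-like cells (7 UMIs in LOY and 11 in control, ratio 4.11, 1.35 to 11.6) and -1.69 in the Cd209a cluster (51 UMIs in LOY and 576 in control, ratio 0.286, 0.211 to 0.382), a difference of 3.22. The difference was not tested. In LOY neutrophil-like cells 80.5% of cells had under 1000 UMIs, against 1.04% in control, and macrophage-like cells of LOY, where Fcrls was 764 CPM, were 80.1% of the library. The log2 ratio in neutrophil-like cells was 2.92 with at least 1000 UMIs per cell, where the class held 23 LOY and 284 control cells. It was 2.24 with cells thinned to 1000 UMIs and 0.79 with 50 CPM added. The parts of depth and of free RNA in this ratio were not tested. Nor was the part of a different make-up of the Cd209a cluster in the 2 libraries in its ratio.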

How the results depend on the processing

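The log2 ratios of the 7 members in macrophage-like cells stayed within their counting intervals when doublets were kept, with at least 1000 UMIs per cell and with at most 5% mitochondrial UMIs, and also without the barcodes found in both libraries, a setting chosen after seeing the data. With 50 CPM added they were 0.59 for Fcgr1, -0.76 for Fcgr2b, 0.41 for Fcgr4 and 1.26 for Fcrls. Without mitochondrial and ribosomal-protein genes in the total, Fcer1g was at 0.31. With Fc receptor genes offered to the clustering, Fcrls was at 1.32, and with each library clustered on its own Fcgr1 was at 0.71 and Fcrls at 1.32. Thinning to 1000 UMIs per cell gave 0.55 for Fcgr1 and -0.027 for Fcgr3. Equal weights for the 6 states, also chosen after seeing the data, gave 0.40 for Fcgr1, -0.92 for Fcgr2b, -0.0031 for Fcgr3, 0.40 for Fcgr4, 0.21 for Fcer1g, 1.24 for Fcrls and 0.19 for Fcgrt, which turns its direction. The direction of Fcgr2b and Fcrls was the same under all of these settings. The log2 ratio of Fcgr2b to the activating receptors stayed within its counting interval in both libraries under the settings tried. In monocyte-like cells, Fcgr1 was at -0.040 with each library clustered on its own and between 0.69 and 1.21 under the other settings. With each library on its own the class held 237 LOY cells, with Ace among their leading genes, and 199 control cells. No paired analysis was possible because each group has 1 library. Depth limits the lymphocyte and neutrophil values, which rest on few UMIs in LOY.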
